A study of Mus musculus with 60 samples.

Results

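Tbx3 encodes a T-box transcription factor, and its level was followed through cultures of mouse intrahepatic cholangiocyte organoids. It is 1 gene of the 31354 listed in at least 1 of the 3 deposited count tables, where it was found by its identifier, ENSMUSG00000018604. The gene was chosen from these data because its level stood out in the single organoids of Set 1, so its values in that set are given as a description and were not tested. All organoids came from liver ducts of male C57BL/6N mice of 3 to 4 months of age and were grown in HepatiCult medium. The study compared cultures, passages and individual organoids by 3′-end RNA-seq.

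The samples fell into 3 experiments, each counted in a table of its own. In the culture experiment, 3 pools of organoids, each from several mice, were grown as Matrigel domes or as a shaken suspension in dilute Matrigel, giving 3 dome and 3 suspension samples. In the passage experiment, bulk RNA was taken from Sets 1, 3 and 4 at passage 4 and at passage 11, with 2 technical replicates of each. No source used here gives the type of culture behind these bulk samples. In the third experiment, 42 organoids were picked singly from suspension cultures, of which the study kept 35: 8 of Set 1, 10 of Set 2, 5 of Set 3 and 12 of Set 4. Each set descended from 1 mouse. Set 1 organoids were picked at passage 11, Sets 2 and 3 at passage 3 and Set 4 at passage 4, so the mouse, the passage and the culture history of Set 1 cannot be told apart. Organoids of a set share a culture and are not separate animals, and p-values between sets measure the spread between organoids. Total counts ranged from 1776490 to 14761853 in the culture table, from 639086 to 3175147 per technical replicate in the passage table, and from 1059002 to 11175868 in the kept organoids. All 15 ductal markers were counted in every group, with summed levels of 4650 to 10524 CPM (counts relative to the library total), whereas macrophage, endothelial and mesenchymal markers summed to at most 92.7, 44.0 and 6.04 CPM in any library.

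T-box factors bind DNA through a conserved domain, and Tbx3 acts mainly as a transcriptional repressor. In the developing liver it is needed for hepatoblasts to proliferate and to take the hepatocyte rather than the cholangiocyte path, and in the adult liver it is found in hepatocytes around the central vein, where Wnt signalling is active. Repression of the cell cycle inhibitor gene Cdkn2a is its best known action.

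In the GRCm38 annotation Tbx3 lies on the plus strand at chr5:119670669-119684724. Its 3 coding transcripts differ in protein by a single coding exon of 60 bases, chr5:119675243-119675302, which adds 20 residues to the T-box region in Tbx3-201 (741 residues) and is absent from Tbx3-202 and Tbx3-203 (721 residues each). The exon is shown because it is the part of the coding sequence that separates the isoforms, with the exon in capitals and 12 bases of the neighbouring exons on either side in lower case.
Tbx3-201, exon 3: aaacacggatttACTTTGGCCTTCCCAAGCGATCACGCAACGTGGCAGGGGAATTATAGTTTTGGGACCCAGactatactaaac
All 3 coding transcripts end in the same last exon, which they share from 119682631 to 119684561. The libraries were made from the 3′ ends of RNA, so every Tbx3 value below is a gene total and the isoforms cannot be told apart. The antisense gene Tbx3os1 (minus strand, chr5:119570130-119671365) overlaps the 5′ end of Tbx3 by 697 bases. The 3′ end of Tbx3os2 (minus strand, chr5:119685095-119691218) lies 370 bases beyond the 3′ end of Tbx3. No source used here says whether the counting used strand, so reads of overlapping genes cannot be told apart.

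Tbx3 was counted in all 60 libraries. The levels below are CPM of the total count scaled by TMM (a correction for differences in RNA composition), and the tables were scaled separately, so levels of different tables are set side by side without a test. Among single organoids the mean level was 80.0 CPM ± 31.5 (SD, n = 8) in Set 1, 11.1 ± 6.54 (n = 10) in Set 2, 10.8 ± 7.14 (n = 12) in Set 4 and 7.69 ± 3.00 (n = 5) in Set 3. In the culture table it was 28.5 CPM ± 7.06 in suspension and 22.5 ± 3.73 in domes (n = 3 each). In the bulk passage table it was 8.45 CPM ± 2.06 at passage 11 and 4.34 ± 2.84 at passage 4 (n = 3 each). Within each table the order of neighbouring groups was tested wherever Set 1 was not involved, and no neighbouring pair differed beyond the spread.

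**Figure D1:**
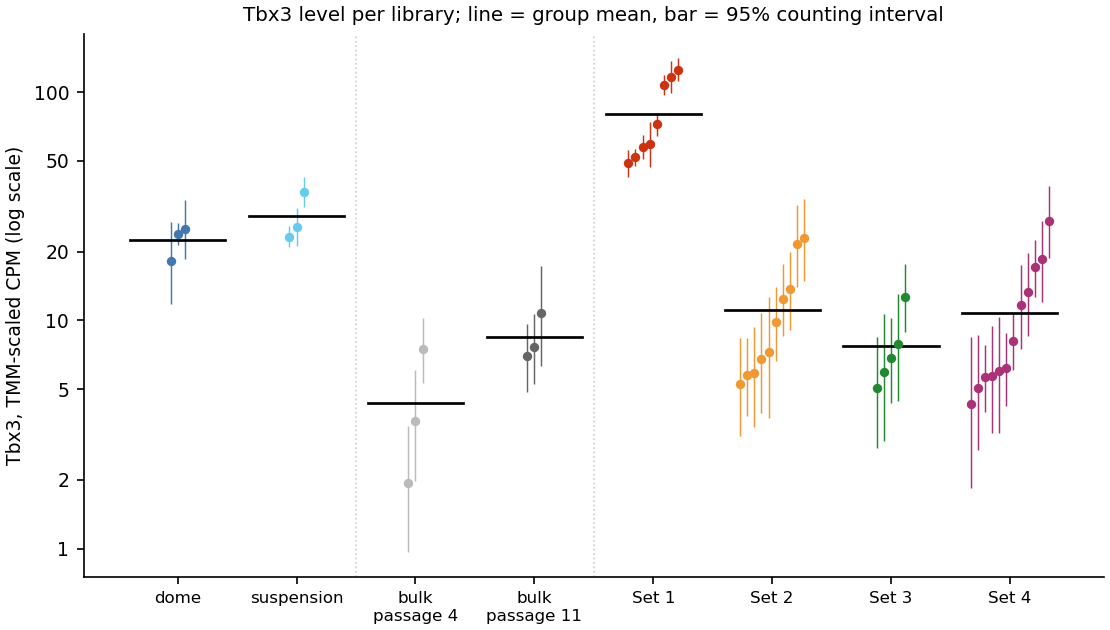
Tbx3 level (TMM-scaled CPM, log scale) in each dome, suspension, bulk and kept single organoid library, with points for libraries, bars for the 95% counting interval of each and black lines for group means. The dotted lines separate the 3 tables; the 8 Set 1 organoids sit between 48.9 and 125.5 CPM, above the 27 organoids of Sets 2 to 4, which reach 27.4 CPM.

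Set 1 organoids carried 79 to 518 Tbx3 counts each. Their levels were 48.9 CPM at the lowest, 65.95 at the median and 125.5 at the highest. Organoids 2, 5 and 7 stood at 107.4, 125.5 and 117.1 CPM and the other 5 between 48.9 and 72.5. The highest level was 2.57 times the lowest. Counting error alone would give a coefficient of variation of 6.87%, against 39.3% observed. Spread beyond counting error is usual between organoids, and these values are a description.

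In Sets 2 to 4 Tbx3 was counted in every kept organoid, with 8 to 52 counts each. Set 2 ran from 5.27 CPM through a median of 8.54 to 23.0. Its organoids 2 and 6, at 21.6 and 23.0 CPM, were the highest of the set, and the next was organoid 5 at 13.7. Set 4 ran from 4.29 CPM through a median of 7.17 to 27.4, the last in organoid 7. The 5 organoids of Set 3 stood at 5.05, 5.96, 6.83, 7.89 and 12.7 CPM. The 3 ranges overlapped between 5.27 and 12.7 CPM. Counting error was a larger part of the spread here than in Set 1, with a coefficient of variation of 20.2% to 23.3% from counting against 39.0% to 66.3% observed.

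The mean of Set 1 was 8.11 times the average of the means of Sets 2 to 4, and the lowest Set 1 organoid was 1.79 times the highest of the other 27. The fold lay between 7.45 and 8.56 when any 1 Set 1 organoid was left out. With all 42 organoids it was 6.42, and the sets overlapped, because the lowest Set 1 organoid then stood at 15.03 CPM and the highest of the other sets at 27.5. These are the values on which Tbx3 was chosen.

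The differences among Sets 2, 3 and 4 were not what Tbx3 was chosen on, and none passed edgeR's quasi-likelihood test with p-values adjusted over all genes and all 6 pairs of sets. The log2 fold-change was 0.41 (SE 0.39, 95% interval -0.38 to 1.21, adjusted p = 0.539) for Set 2 minus Set 3. It was 0.04 (SE 0.30, -0.57 to 0.65, adjusted p = 0.957) for Set 2 minus Set 4 and -0.38 (SE 0.38, -1.15 to 0.39, adjusted p = 0.567) for Set 3 minus Set 4. The intervals leave room for changes of over 2-fold between Sets 2 and 3 and between Sets 3 and 4. Of the 13927 genes tested, 3.93%, 12.4% and 11.6% passed in these 3 comparisons.

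Among kept organoids, Tbx3 levels tended to be lower in deeper libraries within Sets 1, 2 and 4, and not within Set 3. After each set's mean was subtracted, the Pearson correlation of log2 CPM of Tbx3 with the log2 total count was -0.55 over the 35 organoids, with -0.59 in Set 1, -0.78 in Set 2, 0.19 in Set 3 and -0.54 in Set 4. Of 6483 genes whose average log2 CPM was 4 or more, 2.65% had a lower correlation, and their median was 0.03. Tbx3 reached that average, at 4.75, through Set 1. In Sets 2 to 4 its means of 7.69 to 11.1 CPM lay below that level, so its place among these genes is a description. The raw Tbx3 count rose with the total, at r = 0.51 on the log2 scale. The left-out libraries, all shallow, are not among the 35 organoids, and their levels went both ways. Organoids 9 and 10 of Set 1 (30.8 and 15.03 CPM) and organoid 4 of Set 4 (3.92) lay below all kept organoids of their sets. Organoid 8 of Set 2 (13.5), organoid 2 of Set 3 (21.2) and organoids 8 and 10 of Set 4 (16.2 and 12.6) lay above the medians of theirs. The median total of the kept organoids was 3556738.5 in Set 1 and 2435888, 2554162 and 2408330.5 in Sets 2, 3 and 4. The part of depth in the spread within sets was not tested beyond these values, and its part in the differences between sets was not tested.

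**Figure D2:**
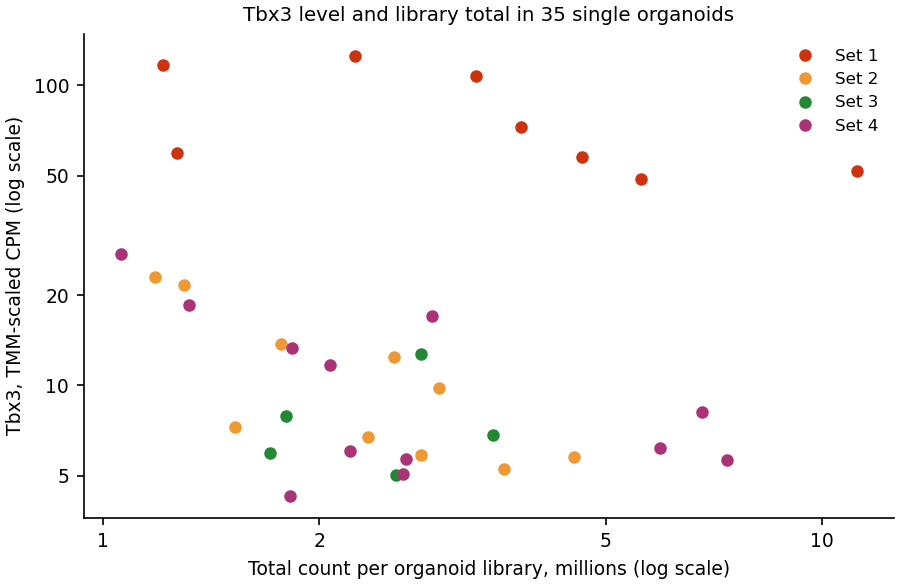
Tbx3 level (TMM-scaled CPM) against the total count of the library, both on log scales, for the 35 kept single organoids coloured by set. Shallow kept libraries of Sets 1, 2 and 4 tend to the higher levels, and every kept Set 1 organoid lies above all other kept ones. The left-out libraries are not shown.

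The comparison of dome with suspension culture asked whether the easier shaken culture changes expression. Tbx3 stood at 24.0, 18.3 and 25.3 CPM in dome samples 1 to 3, from 315, 25 and 46 counts. It stood at 36.6, 25.7 and 23.3 CPM in suspension samples 1 to 3, from 174, 109 and 339 counts. The groups overlapped, with suspension sample 1 above all others. The log2 fold-change, dome minus suspension, was -0.32 (SE 0.24, 95% interval -0.85 to 0.22) and did not pass edgeR's quasi-likelihood test (adjusted p = 0.339).

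Of the 12699 genes tested, 29.8% passed between dome and suspension, 15% higher in domes and 14.7% lower. Against that background, of 6 genes reported elsewhere as repressed by Tbx3, 2 were higher and 1 lower in domes, with a median log2 fold-change of -0.19 beside -0.04 over all genes tested. Cdkn2a, which encodes the inhibitors p16 and p19ARF, was at 18.0 to 21.2 CPM in domes and 3.58 to 4.96 in suspension. It was higher in domes by 2.22 on the log2 scale (SE 0.25, adjusted p = 0.000817, edgeR). Cdkn1a, the gene of the inhibitor p21, ranged from 262.7 to 980.4 CPM in domes and from 101.7 to 130.6 in suspension (log2 fold-change 2.25, SE 0.42, adjusted p = 0.00499, edgeR). Onecut1, a factor of the early biliary programme, was lower in domes at 0.94 CPM ± 0.19 against 3.43 ± 1.25 (n = 3 each; log2 fold-change -1.73, adjusted p = 0.025, edgeR). Cdh1 did not pass, with a log2 fold-change of -0.25 (SE 0.20, adjusted p = 0.376, edgeR). Cdkn2a and Cdkn1a were thus higher in domes and Onecut1 lower, while the Tbx3 groups overlapped. A link of these genes to Tbx3 was not tested.

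Among Wnt targets, the genes by which that pathway is usually read, 1 of 8 tested was called. This was Znrf3, a ligase that removes Wnt receptors, at 2.98 CPM ± 1.29 in domes and 5.85 ± 0.79 in suspension (log2 fold-change -1.25, adjusted p = 0.0339, edgeR). Axin2, a component of the complex that degrades beta-catenin, was not called at 1.02 (SE 0.54, adjusted p = 0.174, edgeR). Of 6 pericentral hepatocyte genes tested, 3 were higher in domes and 2 lower. The higher ones were the glutamine synthetase gene Glul (32.8 CPM ± 10.4 against 13.1 ± 2.81), the drug-metabolising Cyp2c29 (63.6 ± 66.2 against 1.11 ± 0.19) and Rgn (9.01 ± 5.96 against 1.88 ± 0.02). The lower ones were Oat, of ornithine metabolism (17.0 ± 4.93 against 30.7 ± 3.75), and Lect2, a secreted hepatocyte protein (0 to 0.15 CPM against 1.65 to 6.94).

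Tbx3 and Mga were the only members of the T-box family with enough counts to test in the culture table, where 4 of the 18 listed were present. Mga, a T-box protein that also pairs with Max, was at 2.20 CPM ± 0.01 in domes and 6.31 ± 0.98 in suspension, a log2 fold-change of -1.53 (SE 0.32, adjusted p = 0.0076, edgeR). Proliferation genes were lower in domes for 14 of 16 and higher for none, including Mki67, a marker of cycling cells (7.08 against 30.8 CPM). Of 12 hepatocyte markers tested, 6 were higher in domes, and 1 was lower. The apolipoprotein gene Apoa1, among the higher ones, ranged from 4.38 to 158.5 CPM in domes around a mean of 58.3, against a mean of 2.20 in suspension. Of 15 ductal markers, 4 were higher and 6 lower. Hepatocyte transcription factors were higher for 3 of 11 and lower for none, with Nr1i2, the xenobiotic receptor PXR, at 4.98 against 0.90 CPM.

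Markers of other cells were low and uneven. The 12 macrophage markers, of which 6 were in the table, summed to 6.92 to 92.7 CPM in domes and 3.57 to 9.45 in suspension, with no counts of Clec4f, C1qb or C1qc in either group. Cd68, a lysosomal protein abundant in macrophages, was higher in domes (41.1 against 4.73 CPM, adjusted p = 0.0223, edgeR), while Csf1r, the only other one tested, stood at -1.12 on the log2 scale and did not pass (adjusted p = 0.311, edgeR). Endothelial markers summed to 15.3 to 19.7 CPM in domes and 10.3 to 11.8 in suspension, with no counts of Cdh5, Kdr or Tek in either group, and Egfl7 was the 1 of 2 tested that was called. The part of these cells in the results above was not tested, and in bulk samples fewer cells of a type and less RNA per cell cannot be told apart.

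The comparison of passage 11 with passage 4 asked what extended culture changes. Set 1 went from 3.62 CPM (14 counts) at passage 4 to 7.62 (34 counts) at passage 11, a ratio of 2.10 (95% counting interval 1.10 to 4.24). Set 4 went from 1.93 CPM (11 counts) to 10.8 (17 counts), a ratio of 5.59 (2.47 to 13.2). Set 3 went from 7.47 CPM (39 counts) to 6.95 (35 counts), a ratio of 0.930 (0.572 to 1.51). The level was higher at passage 11 in Sets 1 and 4 and not in Set 3, and the groups overlapped through Set 3. The intervals cover counting error only, and each mouse had 1 culture at each passage.

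Over the 3 sets the log2 fold-change, passage 11 minus passage 4, was 0.89 (SE 0.44, 95% interval -0.07 to 1.85) and did not pass edgeR's quasi-likelihood test (unadjusted p = 0.0662, adjusted p = 0.177). It was called in 2 alternatives. Without the passage 4 sample of Set 3 the value was 1.59 (adjusted p = 0.0401, edgeR), and with all samples and no filter on low counts it was 0.89 (adjusted p = 0.0483, edgeR). Without the passage 4 sample of Set 4 it was 0.51 (adjusted p = 0.404, edgeR).

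The technical replicates stood close together except in Set 4 at passage 11. At passage 11 they stood at 8.53 and 6.15 CPM in Set 1, 7.49 and 6.45 in Set 3 and 6.69 and 16.1 in Set 4. At passage 4 they stood at 3.71 and 3.60 in Set 1, 8.65 and 6.56 in Set 3 and 2.17 and 1.66 in Set 4. Set 4 at passage 11 was the shallowest pair and rested on 6 and 11 counts.

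Bulk and single organoid libraries of the same mouse and passage can be set side by side for Set 1 at passage 11 and Set 4 at passage 4. The Set 1 organoids stood at 48.9 to 125.5 CPM and the bulk replicates at 8.53 and 6.15. The Set 4 organoids stood at 4.29 to 27.4 CPM and the bulk replicates at 2.17 and 1.66. In both sets every kept organoid lay above both bulk replicates. The tables were scaled separately, and the single organoid libraries were made from bead-captured mRNA with input set by Actb, the bulk ones from total RNA, so kit, input, culture and organoid choice cannot be told apart.

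**Figure D3:**
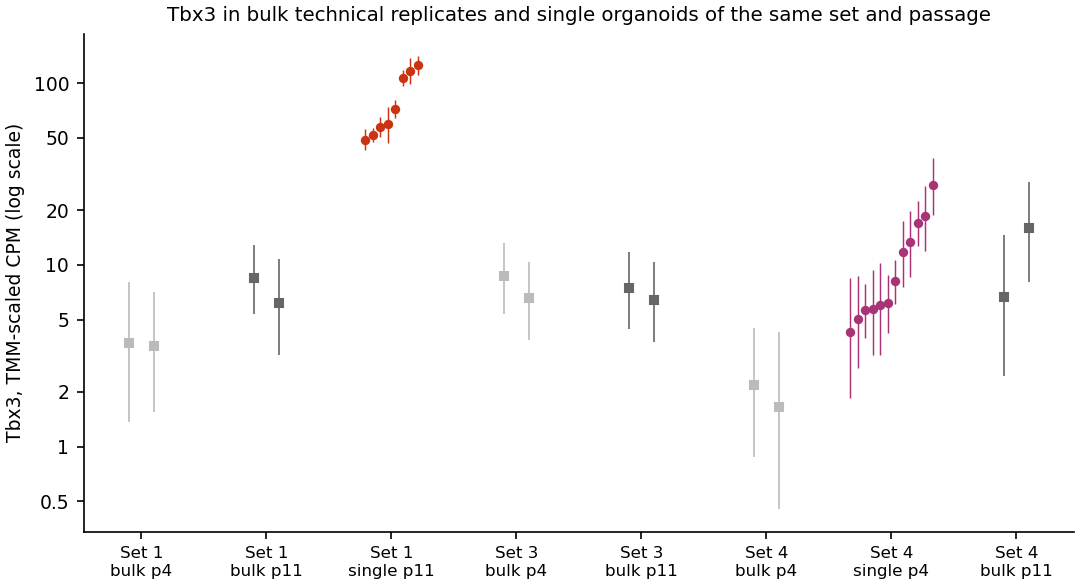
Tbx3 level (TMM-scaled CPM, log scale) in the 2 technical replicates of each bulk sample (squares) at passage 4 (p4, light grey) and passage 11 (p11, dark grey), with the single organoids of the same set and passage (circles) for Sets 1 and 4; bars are 95% counting intervals. Bulk levels rise from p4 to p11 in Sets 1 and 4 and not in Set 3, and the Set 1 organoids lie far above their bulk replicates.

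Of the 13738 genes tested between passages, 20.3% passed, 10.1% higher at passage 11 and 10.1% lower. Of the 6 reported Tbx3-repressed genes, 1 was higher and 3 lower, with a median log2 fold-change of -0.53 beside -0.05 over all genes. Cdkn2a stood at 11.4 to 54.2 CPM at passage 11 and 8.02 to 8.61 at passage 4 (log2 fold-change 2.32, SE 0.42, adjusted p = 0.00534, edgeR). Cdkn1a fell at passage 11, from 258.6 CPM ± 81.1 to 145.0 ± 46.2 (adjusted p = 0.0488, edgeR), and so did the epithelial cadherin gene Cdh1, from 231.4 ± 8.63 to 125.5 ± 16.2 (adjusted p = 0.0031, edgeR). Onecut1 fell from 2.82 to 0.76 CPM (log2 fold-change -2.11, adjusted p = 0.0272, edgeR). Cdkn2a was thus higher in domes than in suspension and higher at passage 11 than at passage 4, whereas Cdkn1a was higher in domes and lower at passage 11.

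Wnt targets gave 2 higher and 1 lower of 11 tested. Sp5, a transcription factor induced by beta-catenin, stood at 2.91 to 21.0 CPM at passage 11 and 1.29 to 1.72 at passage 4 (log2 fold-change 2.77, SE 0.63, adjusted p = 0.0136, edgeR). Ascl2, a stem cell factor of the gut, stood at 7.17 to 47.6 CPM against 4.14 to 4.98 (log2 fold-change 2.54, SE 0.55, adjusted p = 0.0113, edgeR). The hyaluronan receptor gene Cd44 fell from 233.1 to 123.3 CPM (adjusted p = 0.00337, edgeR). Axin2 (1.50, SE 0.59) and Lgr5 (-0.21, SE 0.36), the receptor of R-spondins, did not pass. Of 6 pericentral genes 1 was called, Oat (41.2 CPM ± 5.55 against 25.3 ± 1.03, adjusted p = 0.0133, edgeR), and Glul stood at 17.5 against 14.4 CPM. Mga fell from 7.24 CPM ± 1.44 to 2.94 ± 0.80 (log2 fold-change -1.39, adjusted p = 0.0153, edgeR).

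Proliferation genes were higher at passage 11 for 14 of 16 and lower for none, such as Rrm2, a subunit of ribonucleotide reductase (183.8 against 22.7 CPM). Of 9 hepatocyte markers tested, 2 were higher and 1, Ambp, lower (14.5 against 194.6 CPM). Of 11 hepatocyte transcription factors 1, Cebpb, was lower and none higher, and of 15 ductal markers 4 were lower and 1, Krt7, was higher. Macrophage markers summed to 2.98 to 4.93 CPM at passage 11 and 4.79 to 18.4 at passage 4, and endothelial markers to 17.9 to 31.1 and 11.1 to 14.9. Egfl7 was again the 1 endothelial marker called (21.0 against 9.80 CPM), while the other 2 tested did not pass and had log2 fold-changes of -0.45 (Pecam1) and -1.80 (Flt1), with no counts of Cdh5, Kdr or Emcn in either group. The part of these cells was not tested.

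**Figure D4:**
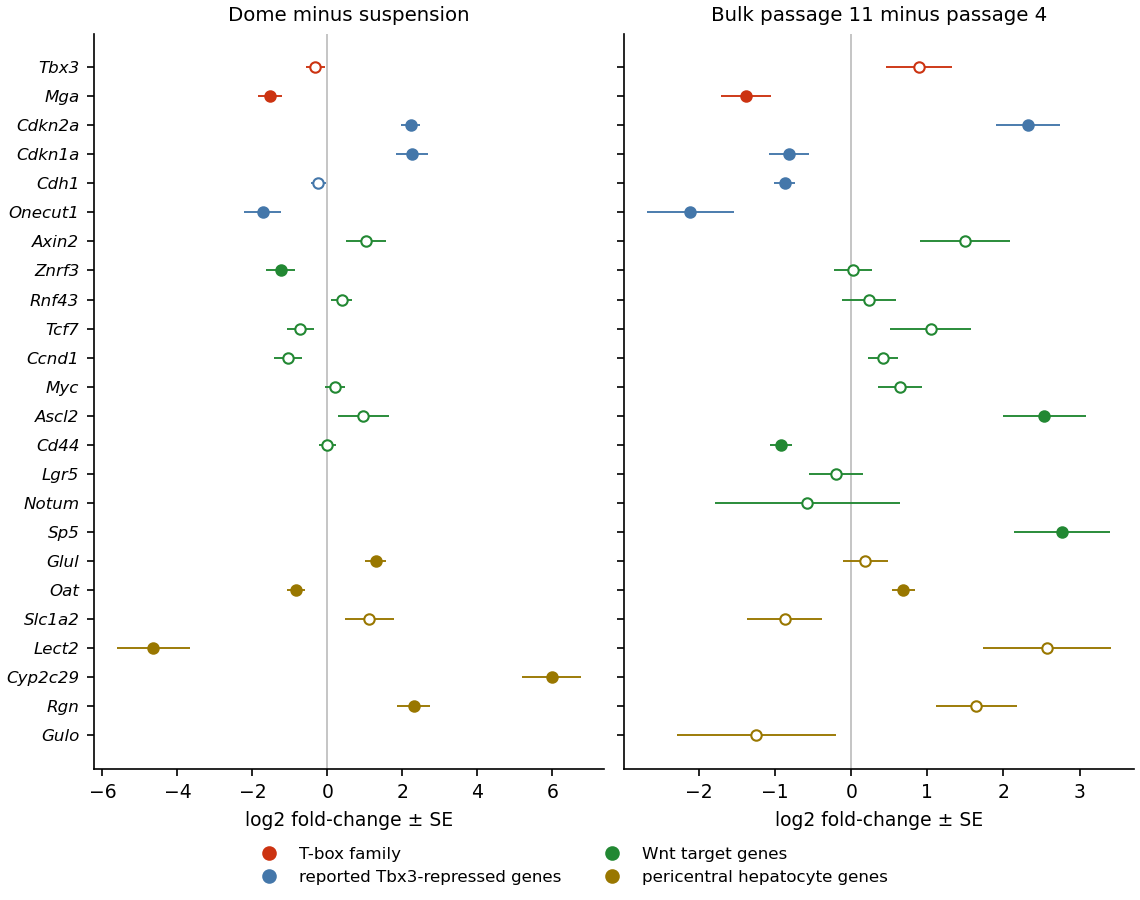
Log2 fold-change with its SE (bars) of T-box, reported Tbx3-repressed, Wnt target and pericentral genes tested by edgeR, for dome minus suspension (left) and bulk passage 11 minus passage 4 (right; the horizontal scales differ). Filled points have an adjusted p under 0.05; Tbx3 is open in both panels, Cdkn2a is filled to the right in both, and a gene without a point was not tested there.

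The lists were also counted among Sets 2, 3 and 4, where 3.93% (Set 2 minus Set 3), 12.4% (Set 2 minus Set 4) and 11.6% (Set 3 minus Set 4) of all genes were called. Of the 6 reported Tbx3-repressed genes, only Cdh1 was called, and it was higher in Set 3 than in Set 2 (log2 fold-change, Set 2 minus Set 3, -0.66, adjusted p = 0.00447, edgeR) and than in Set 4 (Set 3 minus Set 4, 0.66, adjusted p = 0.00353, edgeR). Cdkn2a was at 23.2 CPM ± 7.08 in Set 2, 19.8 ± 9.70 in Set 3 and 16.2 ± 8.75 in Set 4. Of 10 Wnt targets, Ascl2 was called in 2 of the 3 comparisons and Sp5 in 2, with Sp5 at 9.56 CPM ± 5.27 in Set 4 against 3.62 ± 1.36 in Set 2 and 2.75 ± 0.75 in Set 3. None of the 5 pericentral genes was called in any of the 3 comparisons by edgeR. Of 13 hepatocyte transcription factors, 1 was called in Set 2 minus Set 3, 4 in Set 2 minus Set 4 and 3 in Set 3 minus Set 4.

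In Set 1, where Tbx3 was high, Cdkn2a stood at 20.2 CPM ± 9.08, between 7.36 and 35.7, and the organoids of Sets 2 to 4 between 4.44 and 35.0. Cdkn1a stood at 420.2 CPM ± 161.8 in Set 1 against means of 248.9 to 285.2 in the other sets, with overlapping ranges. Of the pericentral genes, Glul stood at 24.4 CPM ± 13.6 in Set 1 (11.9 to 53.9) against means of 7.15, 10.2 and 9.32 in Sets 2, 3 and 4. The list did not move together. Oat stood at 7.84 CPM in Set 1 against 11.9, 10.6 and 14.4 in Sets 2, 3 and 4. Lect2 and Slc1a2 also had their lowest mean in Set 1, and Rgn lay between the other sets. Of the Wnt targets, Axin2 stood at 19.7 CPM ± 7.02 in Set 1 and 21.3 to 36.1 on average in the others, and Lgr5 at 0.81 ± 0.56 against 1.98 to 4.93. Tcf7, Znrf3, Cd44 and Sp5 also had their lowest mean in Set 1. Rnf43 (9.59 CPM) and Ccnd1 (711.2 CPM) had their highest mean there, and Ascl2 and Myc lay between. These Set 1 values are a description, since the contrast of Set 1 with the other sets is the one on which Tbx3 was chosen.

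Tbx3 was also the only T-box gene apart from Mga counted in all 35 organoids. Mga stood at 33.9, 33.6, 31.2 and 23.5 CPM on average in Sets 1 to 4. Eomes, a T-box factor of lymphocytes and early embryos, had 18 counts in all and Tbx6 had 9, and Tbx2, the closest relative of Tbx3, had 1. Tbx5, Tbx20, Tbx22 and Tbr1 had 1 count each, Tbx15 had 5 and Tbx1 had 0.

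The antisense gene Tbx3os1, named after its values were seen, had 101 counts in Set 1, 3 to 41 in each of the 8 organoids. It had 14 counts in Set 2, 3 in Set 3 and 16 in Set 4, at most 5 in any organoid. Its share of the counts at both genes was 4.39% in Set 1 (exact 95% binomial interval 3.59 to 5.31), 5.74% in Set 2 (3.17 to 9.44), 2.94% in Set 3 (0.611 to 8.36) and 4.72% in Set 4 (2.72 to 7.55). The 4 intervals overlapped, and those of Sets 2 to 4 are wide; a difference between the shares was not tested. In domes it was 2.03% (0.881 to 3.96) and in suspension 0.797% (0.259 to 1.85). These intervals cover counting error only. Tbx3os2 had 7 counts over the 35 organoids.

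The genes whose levels followed Tbx3 from organoid to organoid were sought within sets, as the correlation of log2 CPM after each set's mean was subtracted (Pearson, 35 organoids), among 6482 other genes whose average log2 CPM was 4 or more. The middle 90% of these correlations lay between -0.39 and 0.37, 32 genes were above 0.6 and 13 below -0.6. The correlation had the same sign in all 4 sets for 379 genes, or 5.85%. The genes named here are the 10 highest and 5 lowest of those, and the points share libraries and depth, so the values are a description.

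The highest was Tmem259, which encodes the membrane protein membralin, at r = 0.78 (0.68, 0.94, 0.63 and 0.71 in Sets 1 to 4). C77080 followed at 0.67 and Cand1, an exchange factor of cullin ubiquitin ligases, at 0.67. Then came the splicing kinase gene Clk2 (0.66), the amino acid transporter heavy chain Slc3a2 (0.65) and the zinc finger gene Zkscan5 (0.65). Dlgap4, Wdr91, Ecd and Tmem102 were each at 0.64. The lowest were Tatdn2 (-0.66), Hsd17b12, of long-chain fatty acid elongation (-0.64), Ttc13 (-0.63), Btbd1 (-0.61) and Ociad1 (-0.59).

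**Figure D5:**
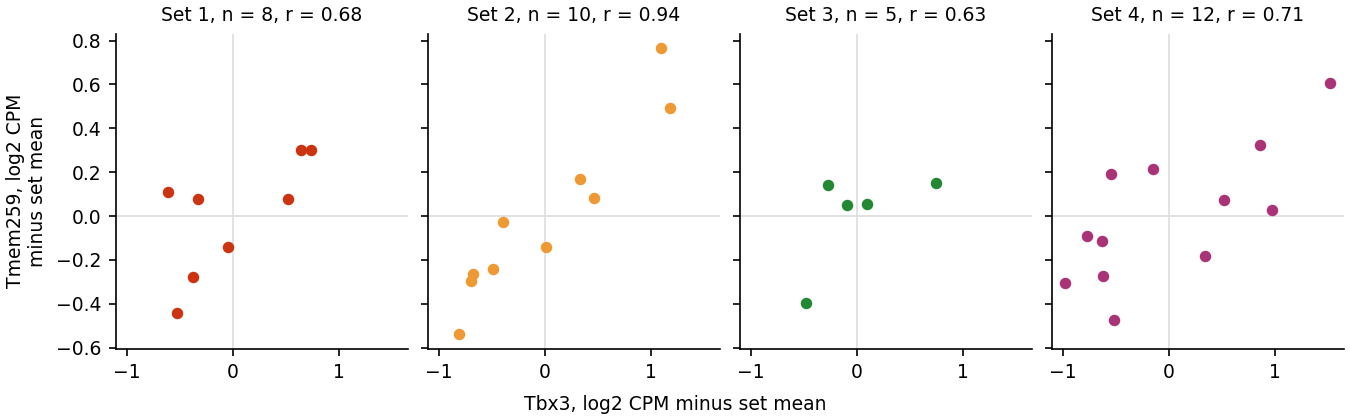
Level of Tmem259 against that of Tbx3, each as log2 CPM minus the mean of the set, for the kept organoids of Sets 1 to 4 in separate panels, 1 point per organoid. The 2 organoids of Set 2 at the top right are organoids 2 and 6, and r is 0.94 in Set 2 and 0.63 in Set 3.

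The 10 genes highest in correlation did not stand out in Set 1 as Tbx3 did. Dlgap4 and Tmem102 had their highest mean there, at 96.0 CPM against 67.8 to 92.5 and at 68.3 against 50.1 to 65.2. Tmem259 averaged 54.2 CPM ± 9.74 in Set 1, 73.5 ± 22.1 in Set 2, 51.0 ± 7.36 in Set 3 and 55.0 ± 12.1 in Set 4. Slc3a2 averaged 329.6 CPM in Set 1 and 584.2 in Set 2. The genes were chosen on correlations with each set's mean subtracted, so likeness of levels between sets had no part in the choice.

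All 10 genes also had a negative correlation with library depth, from -0.44 (Dlgap4) to -0.74 (Tmem102), and the 5 lowest a positive one, from 0.20 to 0.60. With the log2 total taken out within sets, Tmem259 stood at 0.68, Dlgap4 at 0.53 and Tmem102 at 0.41, and 3 of the 10 remained among the 10 highest. Set 2 weighed heavily. Without it Tmem259 stood at 0.67, but none of the 10 genes was among the 10 highest of the other 3 sets, and without its organoids 2 and 6 there were 2. Membership of the 10, Tmem259 included, thus depended on Set 2, and the order also on the way the correlation was taken.

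In the culture and passage tables Tmem259 did not pass either test, with log2 fold-changes of -0.65 and -0.00. Of the 15 genes, 3 were called in the culture comparison (Clk2, Ecd and Tatdn2), where 29.8% of all genes were. In the passage comparison 4 were called (C77080, Slc3a2, Ecd and Btbd1), where 20.3% of all genes were. Clk2 and Ecd were lower in domes, with log2 fold-changes of -1.07 and -1.25, and Tatdn2 was higher at 1.41. At passage 11 Slc3a2 and C77080 were lower, at -1.25 and -0.68, and Ecd and Btbd1 higher, at 0.67 and 0.47.

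The lists lay close to the bulk of genes in this correlation. The median r was -0.10 for the 6 reported Tbx3-repressed genes, 0.08 for 10 Wnt targets, -0.04 for 5 pericentral genes, -0.13 for 13 hepatocyte transcription factors, 0.10 for 11 hepatocyte markers, -0.05 for 15 ductal markers and 0.06 for 16 proliferation genes, beside -0.04 over all 13923 genes. Cdkn2a stood at -0.19, with 0.74 in Set 1, -0.06 in Set 2, 0.02 in Set 3 and -0.64 in Set 4. The highest member of these lists, named after its value was seen, was Foxa1, a pioneer factor of liver and other endoderm, at 0.47, with 0.85 in Set 2 and -0.12 in Set 1. The correlation of a single gene with Tbx3 thus often changed sign from set to set.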

How the data were processed

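Gene counts per sample were made and deposited by the authors from 3′-end RNA-seq libraries with molecular identifiers, using zUMIs with STAR, SAMtools 1.9 and featureCounts on GRCm38 and down-sampling within zUMIs. No source used here says whether the counts are reads or identifiers, or whether they are down-sampled. Each table's column names matched the sample titles, and symbols were matched to 23416 of 23440 identifiers in the culture table, 23044 of 23068 in the passage table and 28731 of 28773 in the organoid table. Coordinates and the exon sequence are those of the GENCODE annotation and transcripts of GRCm38.

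Technical replicates of the passage experiment were summed, giving 3 against 3 samples. Counts were filtered with filterByExpr (minimum count 3), scaled by TMM and tested with edgeR 4.0.16 (glmQLFit and glmQLFTest, R 4.3.3) over all genes kept, with Benjamini-Hochberg adjustment and a threshold of 0.05. The 4 sets were fitted together and the 6 comparisons between them adjusted together. No block was used, as the study's methods state none. The method was also run on simulated counts with large planted changes. That run does not show how smaller changes in genes of low count would fare. Counting intervals are exact Poisson or binomial at 95%. Correlations used log2 CPM with a prior count of 2. The genes named were Tbx3, the members of the T-box, repressed, Wnt and pericentral lists, up to 5 called members of largest change of each other list, and the 10 highest and 5 lowest correlations. Tbx3, the lists and the tests were chosen with earlier results of these data known, and the list of repressed genes comes from general knowledge of Tbx3. Some members of the lists are counted but not reported by name here.

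Deviations of same-numbered dome and suspension samples were weakly correlated (r = 0.153, 0.165 and 0.191). The study grew the same organoids in both cultures, but the sample titles do not say that equal numbers share a pool. The passage samples of a set come from the same mouse (r = 0.11, 0.0283 and 0.108). Fits with the replicate number as a block, limma-voom 3.58.1, DESeq2 1.42.0, RLE scaling, other filters, thinned libraries, left-out replicates and all 42 organoids were run as alternatives. Replicate pairs differed by more than sampling noise (chi-square at least 1.12 per degree of freedom for technical replicates, 5.02 for cultures and 2.47 for organoids).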

Additional observations from a re-analysis of the deposited data

Results flagged for a closer look

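In groups of 4 to 10 organoids, 3 values of 48 groups examined stood far from their neighbours by Dixon's criterion, and chance alone gives about 1 in 20 groups. Tmem259 stood at 38.2 CPM in organoid 3 of Set 3, with the next lowest at 52.3. Dlgap4 stood at 133.2 CPM in organoid 2 of Set 2, with the next highest at 103.2. Ociad1 stood at 178.1 CPM in organoid 11 of Set 2, with the next highest at 151.1. No Tbx3 value of a kept organoid was set apart in this way in Sets 1, 2 and 3, and Set 4, with 12 organoids, was not examined.

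The 7 organoids that the study left out, with totals of 666660 to 1152914, also carried Tbx3 counts, and 6 had more than 3. Organoid 9 of Set 1 stood at 30.8 CPM and organoid 10 of Set 1 at 15.03, both below all 8 kept organoids of that set. Organoid 8 of Set 2 stood at 13.5 CPM, organoid 2 of Set 3 at 21.2, organoid 8 of Set 4 at 16.2 and organoid 10 of Set 4 at 12.6. Organoid 2 of Set 3 lay above all 5 kept organoids of its set. Organoid 4 of Set 4, with 3 counts, stood at 3.92 CPM, below all kept organoids of its set.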

How the results depend on the processing

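Tbx3 kept its direction and its side of the threshold under all 13 alternatives for dome minus suspension (log2 fold-change -0.47 to -0.10) and all 15 each for Set 2 minus Set 3 (0.21 to 0.69) and Set 3 minus Set 4 (-0.65 to -0.16). For passage 11 minus passage 4 it kept its direction in all 15 (0.51 to 1.59, also the range over left-out replicates) and was called in 2 of 15: without a filter (0.89, adjusted p = 0.0483, edgeR) and without Set 3 at passage 4 (0.0401). Set 2 minus Set 4 turned to -0.13 in thinned libraries. With the replicate block, Tbx3 stood at -0.34 (culture), 0.93 (passage), 0.49, 0.11 and -0.38 (the 3 set pairs) and no call changed. Organoid numbers pair no samples, as the sets come from different mice (r from -0.205 to 0.375). Their block moved the genes called from 1722 to 897 for Set 2 minus Set 4 and from 1610 to 731 for Set 3 minus Set 4. Of the 10 genes most like Tbx3, 9 were shared with a prior count of 0.5, 5 with Spearman's rho, 4 with the mean of the sets' own r, 3 each without Set 1, in thinned libraries and, chosen after seeing the data, with the total count taken out, 2 without organoids 2 and 6 of Set 2 and 0 without Set 2. The causes were not tested.
Counts of all genes called also moved by over 1.5 times. They were 3779 for culture (1893 to 2209 without a suspension sample), and 2784 for passage (1552 to 1788 without Set 3 at either passage or Set 4 at passage 4, 1811 thinned, 1717 with technical replicate 1 only). They were 548 for Set 2 minus Set 3 (252 with all 42 organoids, 180 adjusted alone, 61 fitted alone), 1722 for Set 2 minus Set 4 (1044 thinned, 977 with all 42), and 1610 for Set 3 minus Set 4 (973 thinned, 716 with all 42, 2839 fitted alone, 803 to 1056 without organoid 3, 4 or 6 of Set 3). Levels of a few CPM rest on 4 to 40 counts per bulk library, which limits what can be seen at passage 4.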

Other observations

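Within sets, Tbx3 had a correlation of 0.20 with Mki67 over the 35 organoids, with 0.69 in Set 1, -0.25 in Set 2, -0.15 in Set 3 and 0.34 in Set 4. Fah, an enzyme of tyrosine breakdown, stood at 0.22 over all, with 0.89 in Set 2 and -0.44 in Set 4. Epcam, an epithelial adhesion gene, stood at -0.10, with -0.65 in Set 2 and 0.75 in Set 4. Glul stood at 0.21, with -0.81 in Set 1 and 0.50 in Set 4. The points share libraries and depth, and each set has 5 to 12 organoids. These genes were chosen after their values were seen, and the values are given without a test.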
